A study of Mus musculus with 16 samples.

Results

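In mouse testis RNA divided with J2, a monoclonal antibody to double-stranded RNA, 10 features of the gene table took more than 50% of the sequencing signal in all 8 libraries of unbound RNA and in 4 of 8 libraries of bound RNA. They are Gm42418, AY036118, Lars2, CT010467.1, Mir6236, Mir6240, Gm23935, Gm24245, Gm24270 and AA474408, which are 10 of the 35920 genes in the table. They were chosen from measured values, as the features that lead the signal of the libraries. Their levels, their shares and their differences between fractions are therefore given as a description, with no test. The table holds 16 libraries, 8 of antibody-bound RNA (J2) and 8 of the RNA that stayed in the supernatant (flow-through). The groups were Dicer KO testis at postnatal day 18 (P18, genotype Dcr-/-, 3 libraries per fraction), adult wild-type testis (2 per fraction) and wild-type testis at P18 (3 per fraction). Both P18 groups carried the strain label C57BL/6 x 129S4/SvJae, and the adult strain was labelled unknown, so age and strain cannot be told apart. Dicer is the endonuclease that processes microRNA hairpins and long RNA duplexes, and the labels name no Cre driver and no cell type in which it was deleted.

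Ribosomal RNA makes up the bulk of the RNA of any cell. A single long precursor, made by RNA polymerase I from repeated gene copies, is cut into the 18S, 5.8S and 28S rRNAs, while 5S rRNA comes from separate genes read by RNA polymerase III. These RNAs fold into many short double-stranded helices. Copies and fragments of rRNA genes are scattered in the mouse genome, and reads of rRNA can be assigned to genes annotated on top of them. Gm42418 and AY036118 are known from other mouse RNA-seq work as places where rRNA reads collect.

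An entry for 5 of the 10 features was found in the RefSeq annotation of GRCm38.p6 (the same assembly as mm10), and 1 of the 5 is annotated as related to rRNA. Gm42418 (ENSMUSG00000098178) is listed there as a synonym of Rn18s-rs5, an 18S rRNA-related pseudogene at chr17:39846354-39848202. AY036118 (ENSMUSG00000105361) is a long noncoding RNA on the minus strand at chr17:39848112-39898385, and its 3′ end overlaps Rn18s-rs5 by 91 bases. Lars2 (ENSMUSG00000035202), at chr9:123366927-123462675 on the plus strand, codes for the mitochondrial leucyl-tRNA synthetase, which charges leucine onto mitochondrial tRNA. It overlaps the long noncoding RNA Gm46137. Mir6236 (ENSMUSG00000098973), at chr9:110281287-110281409, is a microRNA gene on the plus strand within the span of the minus-strand long noncoding RNA Gm39429. Mir6240 (ENSMUSG00000098343) is a microRNA gene at chr5:114851948-114852064 that overlaps no other gene. CT010467.1, Gm23935, Gm24245, Gm24270 and AA474408 are named only, by the symbols that match their Ensembl identifiers. No rRNA sequence or genome was at hand, so whether the reads counted on these features came from rRNA was not tested.

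Both microRNA genes have short mature products, which are printed here because their genes held 0.303 to 1.55 M units of flow-through signal (M stands for 1e+06), while no other microRNA gene passed 38.1 units. The sequences are from RefSeq (GRCm38.p6), 5′ to 3′; capitals mark the seed (bases 2 to 8) in the mature microRNAs and the mature microRNA within the hairpin.
mmu-miR-6236, chr9:110281353-110281371, plus strand: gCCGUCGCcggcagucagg
mmu-miR-6240, chr5:114851973-114851998, plus strand: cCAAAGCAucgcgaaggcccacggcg
Mir6240 hairpin, chr5:114851948-114852064, plus strand: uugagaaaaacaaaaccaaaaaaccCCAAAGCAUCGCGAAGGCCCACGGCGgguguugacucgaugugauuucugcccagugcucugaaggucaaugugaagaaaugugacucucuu

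The mature miR-6236 is 19 bases long with 78.9% G and C, a higher share than in 98.8% of the 1738 mature mouse microRNAs in the table. The mature miR-6240 is 26 bases long with 69.2% G and C, above 94.9% of them, while the median mature microRNA had 52.2%. The whole 117-base hairpin of Mir6240 held 47.0% G and C, so the mature part is richer in G and C than the rest of its precursor. The 2 seeds differ. No other mature microRNA shared the miR-6236 seed, and the miR-6240 seed also occurs in mmu-miR-330-3p, whose gene Mir330 was listed at 0 in all 16 libraries.

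The values are the authors' normalized counts, which set the median gene about equal between libraries. They are not divided by gene length, so features are set beside each other by signal, not by number of RNA molecules. Column totals were 0.446 to 0.824 M in the J2 libraries and 6.05 to 34.9 M in the flow-through libraries. Without the 10 features the totals were 0.205 to 0.2997 M in J2 and 0.308 to 0.474 M in flow-through, and flow-through libraries then differed by up to 1.54-fold, against 5.76-fold with the features in. From the smallest steps between values, 1 read was worth about 0.116 to 0.516 units in J2, which gives roughly 1.23 to 4.54 M reads per library. In J2, 11 to 20 of the first 20 multiples of that step were found. Flow-through gave 2.005 to 8.31 units and 0.998 to 5.87 M reads, with weak support, since only 1 to 3 multiples were found. In wild-type P18 flow-through replicates 1 and 3 that was only the value itself, so no step was seen. Libraries of a J2 and flow-through pair share a code in the table, and carry the same replicate number below. The labels do not say that replicates came from separate animals, so p-values cannot be taken to measure the spread between animals. They rest on a variance that the limma fit below draws toward that of genes of similar level, not on 1 feature's spread alone. On the 10 features, 3 libraries stood apart. KO replicate 1 and adult replicate 2 of the flow-through did so by their Lars2 signal. Wild-type P18 J2 replicate 2 did so by its low Gm42418 signal. Over all genes, adult J2 replicate 2 stood apart, with 22683 genes above 0 against 6874 to 11591 in the other J2 libraries. The features held 43.0% of its signal, and 48.2% without mitochondrial genes in the total. As a check of the age labels, summed markers of meiotic and postmeiotic germ cells were 2081 to 3057 in adult J2 and 732 to 1557 in wild-type P18 J2, and 2159 to 2681 in adult and 234 to 451 in wild-type P18 flow-through. Dicer1 was listed at 0 in 7 of 16 libraries and reached at most 13.7, too low to check the knock-out.

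Together the 10 features held 64.5% ± 0.239 of the signal in KO J2 (SD, n = 3), 43.0% and 46.1% in the adult J2 libraries, and 50.9% ± 12.2 in wild-type P18 J2 (SD, n = 3). In flow-through they held 95.9% ± 2.59 in KO (SD, n = 3), 96.6% and 97.5% in adult, and 95.8% ± 1.28 in wild-type P18 (SD, n = 3). The KO J2 libraries lay within 64.2% to 64.7%, while the wild-type P18 J2 libraries reached from 39.2% to 63.5%, just under the lowest KO library. The share in flow-through is set beside labels that describe this fraction as depleted of ribosomal RNA. By mean share over the 6 groups, CT010467.1 ranked first with 27.2%, followed by Gm42418 with 21.0%, Lars2 with 12.3%, AY036118 with 6.20%, Mir6236 with 2.80% and Mir6240 with 2.63%. The mitochondrial 16S rRNA gene mt-Rnr2, which is no member, came next with 1.04%, above Gm23935, Gm24245 and Gm24270 with 0.842% each. AA474408 had rank 16 with 0.120%, just above the translation factor gene Eef1a1 with 0.102%. Between it and the 3 Gm features stood 5 genes outside the set, mt-Rnr1, mt-Co1, Hist1h2ba, Gm24265 and Gm24407.

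**Figure D1:**
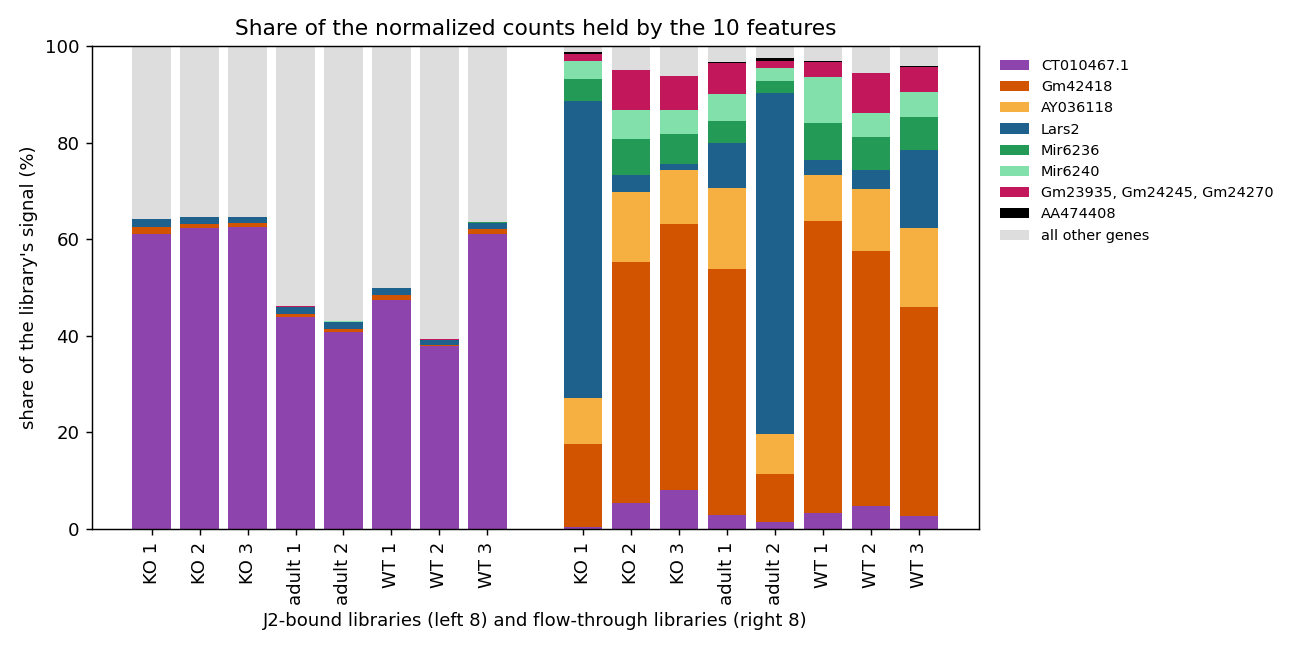
Stacked share of each library's normalized signal (percent, vertical axis) taken by the 10 features, one bar per library, in J2 and in flow-through. CT010467.1 fills most of the stack in every J2 library (37.9% to 62.4%), and Gm42418 or Lars2 is the largest part in every flow-through library.

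Different features dominated in the bound and in the unbound RNA. CT010467.1 was the highest gene in each of the 8 J2 libraries. It held 61.0%, 62.4% and 62.4% of the signal in KO J2, 43.9% and 40.8% in adult J2, and 47.4%, 37.9% and 61.1% in wild-type P18 J2. In flow-through its share was 0.408% to 8.09%, and its rank 3 to 10. Its normalized count, however, was about as high in flow-through as in J2. It was 348594, 399642 and 514227 in KO J2, 225325 and 214538 in adult J2, and 247209, 168802 and 352478 in wild-type P18 J2. The flow-through values were 142246, 416526 and 624625 in KO, 332106 and 171493 in adult, and 338328, 290197 and 224021 in wild-type P18. The groups overlapped between fractions, and J2 minus flow-through within a pair ran from -0.78 to 1.29 on the log2(value + 1) scale, with a median of -0.17 over 8 pairs. On shares of the column total the same log2 ratio was 2.95 to 7.22. The direction for CT010467.1 thus depends on whether the fractions are set equal by their median gene or by their total.

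The other 9 features had a lower normalized count in every J2 library than in every flow-through library. Across the 9526 genes with a value of at least 10 in at least 2 of the 16 libraries, 57 showed that pattern (0.598%) and 45 the opposite (0.472%). The features were chosen for their signal, so nothing is read from that count. Over these 9526 genes the median J2 minus flow-through difference was 0 (log2), and the median of the 8 pairs lay between -0.44 and 0.32. Genes listed at 0 in both libraries of a pair have a difference of 0 there and are part of these medians. The median over the features was -10.42, with Gm23935, Gm24245 and Gm24270, which hold the same values, counted once. The size of these differences depends on the scaling as well. On shares of the column total, the median log2 ratio of J2 to flow-through was -5.78 for Gm42418, -2.19 for Lars2 and -3.94 for AA474408, and the Lars2 shares overlapped (1.16% to 1.63% in J2, 1.33% to 70.6% in flow-through). The other 8 stayed separate on shares too.

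**Figure D2:**
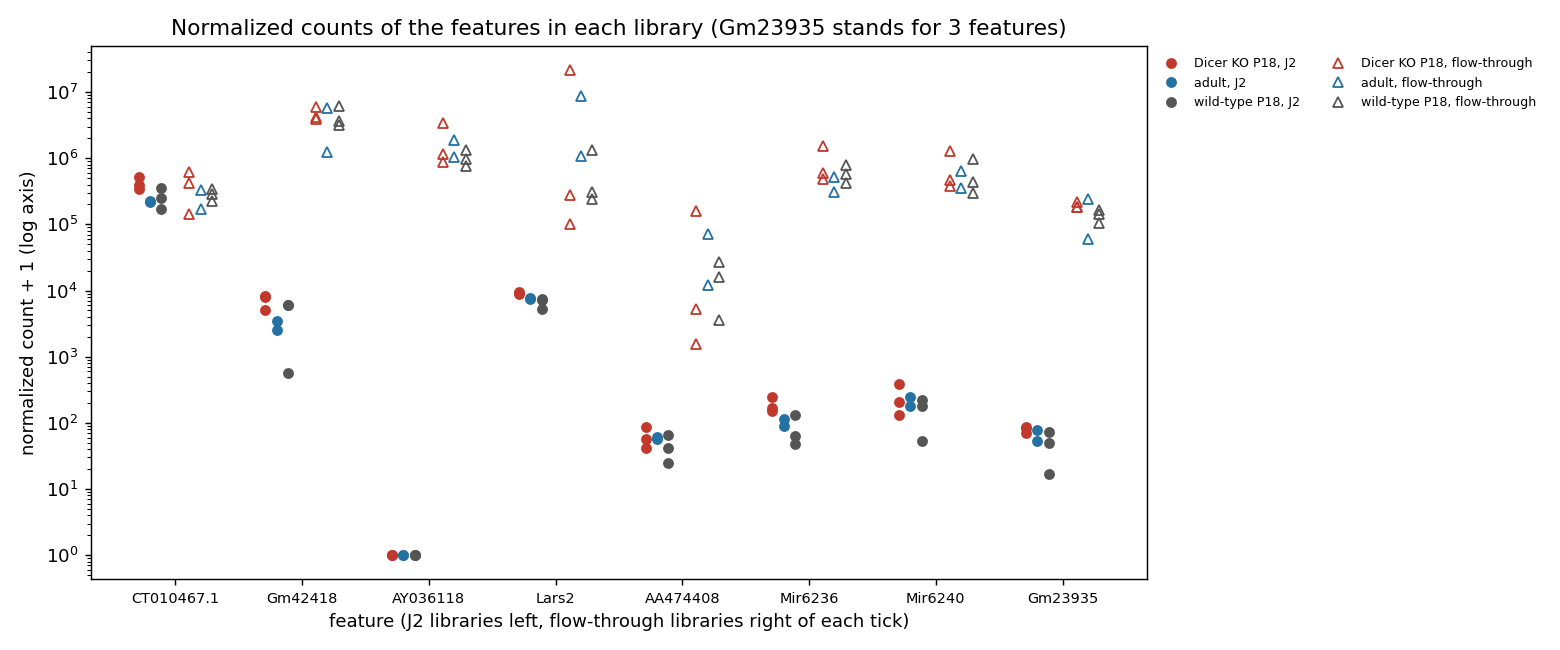
Normalized count + 1 of the features in each library on a log axis, with J2 libraries as filled circles and flow-through libraries as open triangles, coloured by Dicer KO P18, adult and wild-type P18. Both fractions of CT010467.1 share one range, AY036118 lies at the bottom in J2 because it is listed at 0 there, and the flow-through values of Lars2 and AA474408 are the most scattered.

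Gm42418, the feature matched to the 18S rRNA-related pseudogene, was the highest gene in 6 of 8 flow-through libraries and the next highest in KO replicate 1 and adult replicate 2. Its flow-through value was 5.98, 3.95 and 4.25 M in KO, 5.80 and 1.24 M in adult, and 6.21, 3.20 and 3.59 M in wild-type P18. It took 17.2%, 50.03% and 55.03% of the signal in the KO libraries, 50.9% and 9.90% in the adult libraries, and 60.4%, 52.8% and 43.3% in the wild-type P18 libraries. The KO and adult ranges both overlapped that of wild type. In J2 its normalized count was 8416, 5122 and 7888 in KO, 2525 and 3522 in adult, and 6038, 571 and 6009 in wild-type P18. Replicate 2 of wild-type P18 was the lowest of the 8 J2 libraries, and the only one in which Gm42418 ranked below 6 (rank 42). J2 minus flow-through was -12.45 to -8.46 (log2), with a median of -9.53.

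AY036118, the long noncoding RNA that meets the end of Rn18s-rs5, was listed at 0 in all 8 J2 libraries, so no fold is given. In flow-through it was 3.35, 1.14 and 0.864 M in KO, 1.91 and 1.05 M in adult, and 0.990, 0.772 and 1.35 M in wild-type P18. KO replicate 1 was the highest, and all 3 groups overlapped. Its share stayed within 8.38% to 16.7%, narrower than that of Gm42418 (9.90% to 60.4%). The neighbours did not move as a fixed pair. Gm42418 divided by AY036118 was 1.78, 3.47 and 4.92 in KO, 3.04 and 1.18 in adult, and 6.27, 4.14 and 2.66 in wild-type P18 flow-through. Such a ratio within a library does not depend on how the library was scaled. In J2 the same ratio has no value, because Gm42418 had 571 to 8416 units and AY036118 was listed at 0.

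Lars2 was the steadiest of the features in J2 and the least steady in flow-through. Its normalized count was 9342, 8747 and 9578 in KO J2, 7846 and 7426 in adult J2, and 7089, 5183 and 7501 in wild-type P18 J2, a 1.85-fold range over 8 libraries. It ranked between 2 and 4 there, with 1.16% to 1.63% of the signal. In flow-through Lars2 was 21.4, 0.279 and 0.103 M in KO, 1.07 and 8.87 M in adult, and 0.307, 0.238 and 1.34 M in wild-type P18, a 208-fold range. KO replicate 1 and adult replicate 2 stood far above the rest, and Lars2 alone took 61.4% and 70.6% of the signal of these 2 libraries. In the other 6 flow-through libraries it took 1.33% to 16.2%. J2 minus flow-through ran from -11.16 to -3.43 (log2), with a median of -6.31. A lower median difference than that of Lars2 was found for 11 of the 9526 genes, and 8 of these were the other features here except CT010467.1.

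AA474408 had less signal than Lars2 in flow-through, with the same 2 libraries on top. It was 159051, 5343 and 1543 in KO, 12013 and 71027 in adult, and 27005, 3554 and 16287 in wild-type P18, with KO replicate 1 and adult replicate 2 the 2 highest. In J2 it was 55.98, 41.4 and 86.3 in KO, 60.2 and 55.8 in adult, and 63.5, 23.9 and 41.04 in wild-type P18, with all 3 groups overlapping. J2 minus flow-through had a median of -8.11 (log2). The features did not keep a fixed ratio in flow-through, where Lars2 divided by AA474408 was 135, 52.2 and 66.8 in KO, 88.9 and 125 in adult, and 11.4, 67.1 and 82.4 in wild-type P18. Wild-type P18 replicate 1 stood below the rest. Pearson's r between Lars2 and AA474408 on log2(value + 1) was 0.914 over the 8 flow-through libraries, and CT010467.1 ran opposite to both, with r of -0.923 against Lars2 and -0.884 against AA474408. These coefficients are descriptions over libraries that share their scaling, and 2 libraries carry much of the range. CT010467.1 was at its lowest, 142246 and 171493 units, in those same 2 libraries. Lars2 divided by Gm42418 was 3.58, 0.0705 and 0.0242 in KO, 0.184 and 7.13 in adult, and 0.0494, 0.0746 and 0.373 in wild-type P18 flow-through. In J2 this ratio kept to 1.11 to 9.07, and the highest value was that of wild-type P18 replicate 2, the library with little Gm42418.

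**Figure D3:**
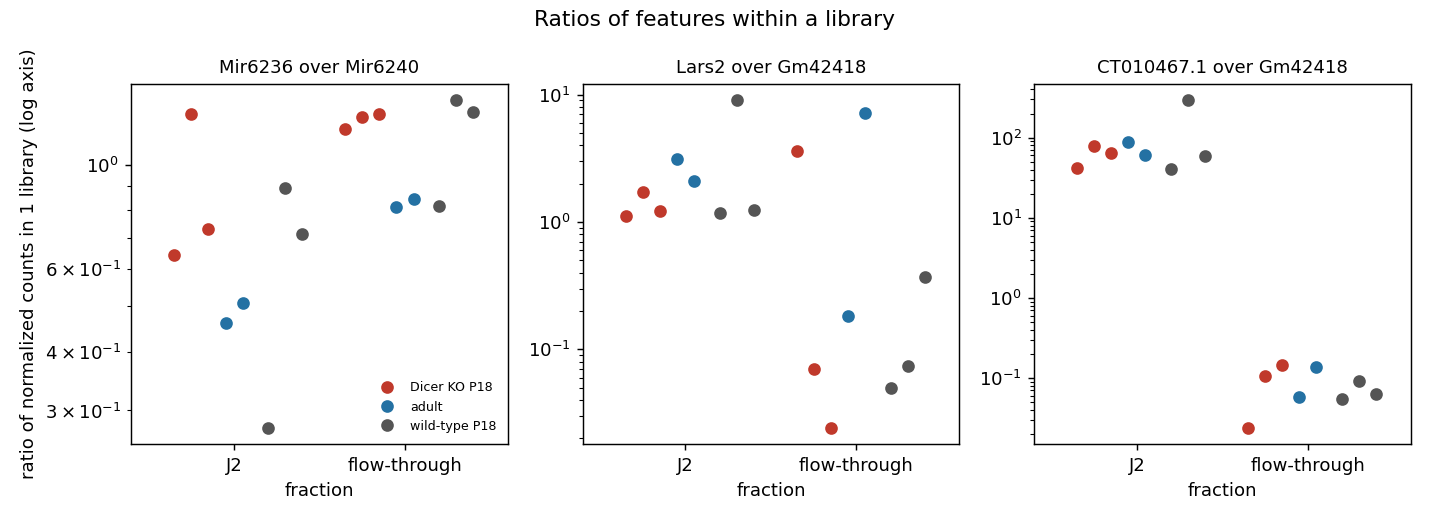
Ratios of one feature to another within each library (log axes), with the KO, adult and wild-type P18 libraries side by side in J2 and in flow-through. Lars2 over Gm42418 spans 0.0242 to 7.13 in flow-through, and CT010467.1 over Gm42418 lies at 40.9 to 295 in J2 and at 0.0238 to 0.147 in flow-through.

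Other genes of the Lars2 family did not share its signal. Of the mitochondrial aminoacyl-tRNA synthetase genes, Lars2 left out, 18 were in the table and 10 had a value of at least 10 in at least 2 libraries. Their summed signal was 56.02 to 341 in J2 and 139 to 234 in flow-through. The median J2 minus flow-through difference of the 10 was -1.05 (log2), against 0 for all genes, and none was below -3. Mars2, for mitochondrial methionyl-tRNA synthetase, averaged 31.1 ± 16.97 in KO, 13.5 ± 0.735 in adult and 32.7 ± 25.4 in wild-type P18 flow-through (SD, n = 3, 2 and 3). Fars2, for the mitochondrial phenylalanine enzyme, averaged 25.9 ± 9.71, 37.8 ± 26.8 and 28.9 ± 7.21 in the same order. In J2, Mars2 averaged 7.70 ± 6.06 in KO, 150.8 ± 154.1 in adult and 7.99 ± 8.41 in wild-type P18. Its highest J2 value, 259.7, was that of an adult library, so the adult mean rests largely on a single library. The cytosolic synthetases, 19 of 20 with enough signal, had a median difference of -0.21.

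Mir6236 and Mir6240 lie on different chromosomes and had much the same signal in flow-through, where Mir6236 divided by Mir6240 was 0.812 to 1.37. In J2 this ratio ranged more widely, from 0.276 to 1.28. Mir6236 was 1.55, 0.596 and 0.482 M in KO, 0.520 and 0.304 M in adult, and 0.798, 0.416 and 0.568 M in wild-type P18 flow-through. Mir6240 was 1.31, 0.471 and 0.376 M in KO, 0.640 and 0.360 M in adult, and 0.976, 0.303 and 0.438 M in wild-type P18 flow-through. Both were highest in KO replicate 1, and KO overlapped wild type for both. In J2, Mir6236 was 244, 167 and 148 in KO, 113 and 89.97 in adult, and 61.6, 47.3 and 129 in wild-type P18. Every KO library was above every wild-type P18 library, as for 421 of 6882 genes (6.12%) in J2. The adult pair lay within the wild-type range. Mir6240 was 380, 131 and 203 in KO J2, 246 and 177 in adult J2, and 224, 52.9 and 181 in wild-type P18 J2, with overlap of all groups. J2 minus flow-through was -13.64 to -11.66 (log2, median -12.12) for Mir6236 and -12.46 to -10.85 (median -11.54) for Mir6240.

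The remaining microRNA genes had little signal in libraries that were not size-selected for small RNA as far as the labels say. Of 1188 genes whose symbols mark them as microRNA genes or hosts, 131 were above 0 in any library. Leaving out both features, 129 of 1186 were above 0 and 10 reached a value of 10. All 1186 together summed to 0.474 to 70.3 in a J2 library and to 23.1 to 87.3 in a flow-through library. The highest single value, 38.1, was that of Mir7242 in adult J2 replicate 1, a gene above 0 in 2 libraries. It was named after its values were seen. By mean over the 16 libraries, the 3 highest after both features were Mir1983, with at most 25.7 in wild-type P18 J2 replicate 2, Mir7214, with at most 19.0 in wild-type P18 flow-through replicate 3, and the host gene Mir17hg, with at most 12.5 in KO J2 replicate 2. Because Dicer makes mature microRNAs from their hairpins, the KO comparison bears on these genes, but a value on a microRNA gene here does not tell a mature product from other RNA that matches the hairpin.

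Gm23935, Gm24245 and Gm24270 carried a single signal. Their values were identical in 12 of 16 libraries, and the largest difference between them was 0.0930% in KO flow-through replicate 3. They count here as 1 measurement, given for Gm23935. It was 181036, 217325 and 183372 in KO, 243189 and 60865 in adult, and 106515, 164385 and 144381 in wild-type P18 flow-through. Every KO library was above every wild-type P18 library, as for 538 of 7141 genes (7.53%) in flow-through. The adult libraries lay on either side of both groups. In J2 it was 69.8, 86.2 and 82.7 in KO, 76.8 and 52.8 in adult, and 15.9, 72.1 and 48.1 in wild-type P18, which is about 37.4 to 456 reads. The 3 features together took 0.00915% to 0.0485% of the signal in J2 and 1.45% to 8.25% in flow-through. J2 minus flow-through was -12.62 to -10.14 (log2), with a median of -11.30.

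Genes annotated as rRNA by symbol were set beside the features. The symbols Rn45s, Rn18s, Rn18s-rs5 and Rn28s1 had no row of their own in the table. The mitochondrial rRNA genes mt-Rnr2 and mt-Rnr1, whose products form the large and small subunit of the mitochondrial ribosome, were lower in J2 as most of the features were, with a median difference of -5.75 and -5.17 (log2). mt-Rnr2 averaged 2052 ± 484 in KO J2, 14404 ± 17631 in adult J2 and 1400 ± 408 in wild-type P18 J2 (SD, n = 3, 2 and 3). Its highest J2 value, 26870.5, was that of an adult library, so the adult J2 mean rests largely on a single library. In flow-through mt-Rnr2 averaged 126686 ± 42047 in KO, 72331 ± 45425 in adult and 72623 ± 16264 in wild-type P18. The 5S rRNA genes held much less signal, since 181 rows of the table summed to 252 to 2346 in a J2 library and to 91.1 to 2299 in a flow-through library. Of the annotated rRNA genes with enough signal, the 2 mitochondrial genes lay below 0 and the other 4, all for 5S rRNA, above. The 5S genes n-R5s100, n-R5s110, n-R5s143 and Rn5s differed from each other by at most 0.452% in any library and so hold a single signal, with a median difference of 1.84.

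Other structured noncoding RNAs were spread around 0, with a median J2 minus flow-through difference of -0.10 (log2) over 11. Rmrp and Rpph1, the RNAs of the ribonucleases MRP and P, stood at -2.76 and -2.80, and Snord118, the U8 small nucleolar RNA that takes part in rRNA maturation, at 4.45. The protein-coding genes that make and mature rRNA were low and near the median of all genes. RNA polymerase I subunits and factors had a median difference of -0.16 over 10 genes, and rRNA processing factors 0.11 over 25. Npm1, for the nucleolar protein nucleophosmin, averaged 37.5 ± 20.2 in KO, 69.9 ± 17.5 in adult and 51.0 ± 24.7 in wild-type P18 J2 (SD, n = 3, 2 and 3).

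The genes most like the features across the 8 flow-through libraries were sought among the 573 other genes with a mean of at least 50, by Pearson's r of log2(value + 1). Nearest to Lars2 was Gm15564, a long noncoding RNA with 34.0 to 1142 units (r = 0.989), followed by the small nuclear RNA genes Gm26316 (0.909) and Gm24265 (0.882). Nearest to Gm42418 were the histone gene Hist3h2a (0.975), Dtnb (0.954) and the histone gene Hist2h2aa1 (0.953). Nearest to AY036118 were Pask (0.938), Eif5b (0.922) and Abhd4 (0.921). Nearest to Mir6236 were Ucp2 (0.974), the histone gene Hist1h4i (0.962) and Ddb1 (0.961). Gm23849, Gm24950 and Rnu2-10 were equally near to Mir6240 (0.912 each) and held the same values, 1017 to 3207 units. Among 930 genes in J2, Polr2b (0.939), Ptma (0.929) and Gm26316 (0.910) were nearest to CT010467.1, and Ctnna1 (0.953), Hnrnpl (0.949) and Rnu2-10 (0.878) to Lars2. With 8 libraries and this many genes, high coefficients of this kind are found readily, and they are given as a description.

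KO was compared with wild type at P18 within each fraction, which asks whether loss of Dicer changes these RNAs in the bound or the unbound RNA. The fit used limma on log2(value + 1) over all genes with a value of at least 10 in at least 2 of the 8 libraries, with Benjamini-Hochberg adjustment, two-sided. Its standard errors use a variance drawn toward a trend over all genes by level. They can therefore be wider or narrower than a feature's own spread between libraries, which the SD and the single values show. None of the 10 features was called at an adjusted p under 0.05 in flow-through, nor were any of the 7141 genes tested (0%); 436 genes (6.11%) had an unadjusted p under 0.05. None of the 9 features tested in J2 was called either, against 0 of 6882 genes (0%) and 440 (6.39%) with an unadjusted p under 0.05. AY036118, at 0 in J2, was not tested there. The smallest unadjusted p of a feature was 0.0515 in J2 and 0.49 in flow-through.

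The difference with the smallest p was Mir6236 in J2, which averaged 187 ± 50.6 in KO and 79.2 ± 43.5 in wild type (SD, n = 3 each). Its log2 difference was 1.32 with a standard error of 0.60 and an adjusted p of 0.78 in limma. Lars2 in J2 averaged 9222 ± 428 in KO and 6591 ± 1237 in wild type, a log2 difference of 0.50 (standard error 0.48, limma adjusted p = 0.91). In J2 these 2 features had every KO library above every wild-type library, as did 421 of 6882 genes (6.12%), and no feature had every KO library below, as 3.78% of genes did. Gm42418 in J2 differed by 1.34 (standard error 0.87, limma adjusted p = 0.86) and by 0.21 without wild-type replicate 2. CT010467.1 in J2 differed by 0.76 (standard error 0.84, limma adjusted p = 0.92).

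In flow-through the signal shared by Gm23935, Gm24245 and Gm24270 had no overlap between KO and wild type, a pattern seen upward in 538 of 7141 genes (7.53%) and downward in 3.04%. It averaged 193911 ± 20310 in KO and 138427 ± 29390 in wild type, a log2 difference of 0.50 (standard error 0.71, limma adjusted p = 0.91). When each library is scaled to a common total over all genes, the features included, the difference is -0.18. With a common total over the other genes it is 0.15, and with quantile normalization 0.21. Leaving out each library in turn gave 0.33 to 0.64. Lars2 in flow-through differed by 0.88 (standard error 2.01, limma adjusted p = 0.96) and by -1.44 without KO replicate 1. Gm42418 differed by 0.17 (standard error 1.89, limma adjusted p = 1). The median difference of all genes was 0.33 in flow-through and 0.13 in J2, and the medians of the features, with the shared signal counted once, were 0.35 and 0.76.

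Adult testis was compared with wild-type testis at P18, a contrast of age in which the strain label also differs. None of the features was called by limma (the smallest unadjusted p was 0.25 in flow-through and 0.39 in J2), whereas 231 of 7141 genes (3.23%) were called in flow-through, 220 higher and 11 lower in adult, and 376 of 6882 genes (5.46%) in J2, 349 higher and 27 lower. These counts and their direction rest on both adult libraries. In flow-through, 0 higher and 5 lower genes were called without adult replicate 1, and 0 higher and 11 lower without adult replicate 2. In J2, 5 higher and 27 lower genes were called without adult replicate 1, and 1 higher and 17 lower without adult replicate 2. Lars2 in flow-through had the largest difference among the features, 2.74 (log2, standard error 2.24, limma adjusted p = 0.70), with 1.07 and 8.87 M in adult and 0.307 to 1.34 M in wild type. Leaving out single libraries moved it between 1.21 and 4.27. Gm42418 in flow-through differed by -0.63 (standard error 2.11, limma adjusted p = 0.93). In J2 Lars2 differed by 0.23 (standard error 0.54, limma adjusted p = 0.90) and CT010467.1 by -0.16 (standard error 0.94, limma adjusted p = 0.97). Gm42418 in J2 differed by 0.12, and by -1.01 without wild-type replicate 2. The median difference of all genes in J2 was 0.33, and it was 0.57 without adult replicate 1 and -0.23 without adult replicate 2. No feature had separate groups in either direction, where 16.6% of genes were above and 8.57% below in adult flow-through, and 18.7% above and 8.83% below in adult J2.

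Among the marker lists, 4 of 10 germ cell markers were called higher in adult in each fraction, with medians of 2.84 in flow-through and 3.06 in J2 (log2). In flow-through these calls were lost when either adult library was left out. In J2 most of them were lost without adult replicate 2. For J2 without adult replicate 1, the calls were not followed marker by marker. Red blood cell markers summed to 5.79 to 5.81 in adult J2 and 106 to 445 in wild-type P18 J2, and 2 of 3 were called lower in adult flow-through and 1 of 4 in adult J2. None of the somatic testis markers tested was called in any comparison. In bulk tissue, fewer cells of a type and less RNA per cell cannot be told apart. The part of cell makeup in the features' values was not tested.

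**Figure D4:**
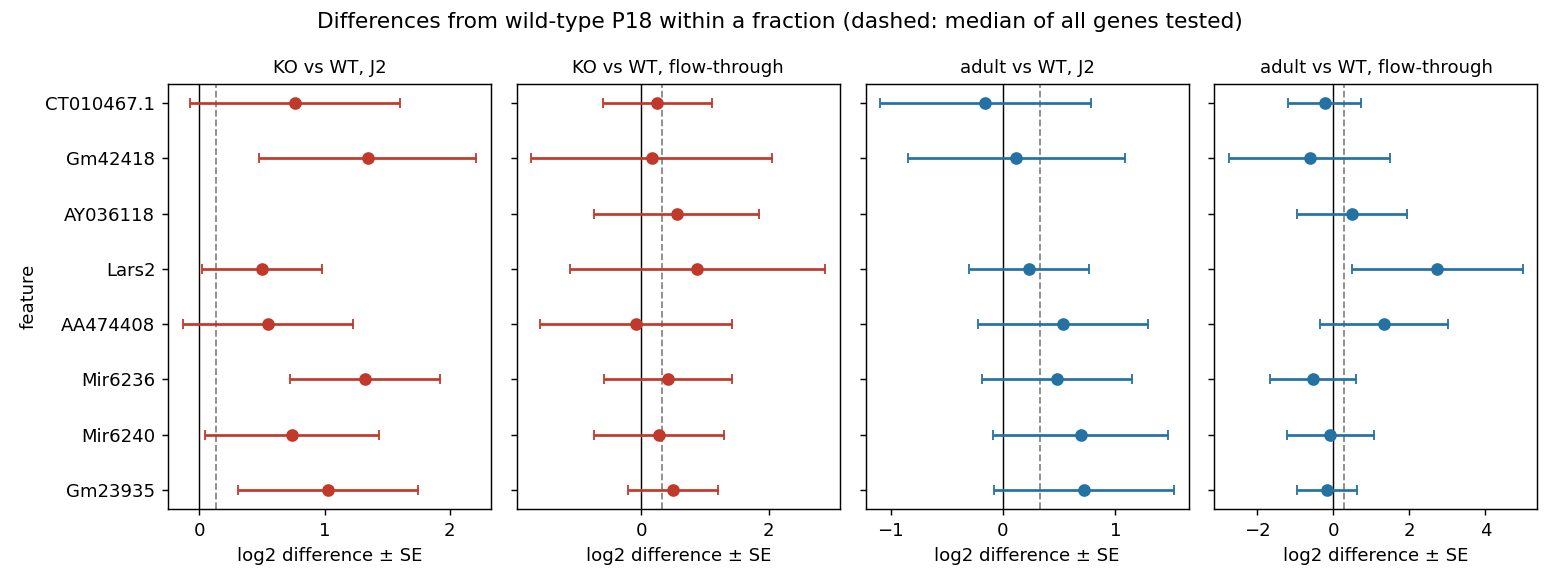
Log2 difference with its standard error for each feature, in each fraction, comparing KO or adult testis with wild-type testis at P18, with the median of all genes as a line. The standard error is that of limma, with a variance drawn toward a trend over all genes, so a bar is not the feature's own spread alone. For KO in J2 the points lie at 0.50 to 1.34, AY036118 has no point in J2, the bars of Lars2 and Gm42418 in flow-through are the widest, and none has an adjusted p under 0.05.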

How the data were processed

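Strand-specific libraries were made with the NuGEN Ovation SoLo kit from J2-bound and unbound RNA, per the labels' protocols. The submitters' processing notes name FastQC, Trimmomatic, Salmon, DESeq2 and mm10, with no version or setting. The deposited values are a signal on the scale of the authors' normalized counts, 1 per Ensembl gene and library, and they are not raw counts. Salmon divides reads that match several features among them, so near-identical features can share a signal. Of 35920 identifiers, 35446 matched a symbol. Whole reads could not be recovered, so no count test was run, and depths in reads are approximate.

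Shares are percentages of the column total. Each fraction was fitted alone over its 8 libraries with limma 3.58.1 in R 4.3.3 (group means, empirical Bayes with trend), on log2(value + 1), which understates the change of low genes. Alternatives were a pseudocount of 10, no filter, 3 other scalings, a fit over the compared groups only, and leaving out each library. Named genes are the 10 features, up to 4 highest genes of each list (the text gives some of these), the 3 nearest genes by correlation, the leading genes by share and the 3 highest other microRNA genes. The members and lists were chosen with earlier results of these data known. The second header line of the table gives the codes that pair J2 with flow-through libraries.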

Additional observations from a re-analysis of the deposited data

How the results depend on the processing

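None of the features passed an adjusted p of 0.05 in limma under any alternative, and the smallest was 0.48. Over 345 combinations of 30 feature results with a setting, the sign was kept in 303, turned in 39 and lost in 3, where quantile normalization gave a difference of 0 apart from rounding error (Mir6236 in flow-through and CT010467.1 in J2 for KO against wild type, and CT010467.1 in J2 for adult against wild type). No paired analysis was possible because the KO, adult and wild-type libraries share no code, and a code joins only a J2 and a flow-through library. Without the filter, 0 genes were called for adult against wild type in either fraction (1506 in flow-through and 2213 in J2 at an unadjusted p under 0.05). Leaving out each library moved these counts between 5 and 253 in flow-through (5 without adult replicate 1 and 11 without adult replicate 2, all of them lower in adult) and between 18 and 357 in J2 (32 without adult replicate 1 and 18 without adult replicate 2, mostly lower in adult). For KO against wild type, the count stayed at 0 in flow-through and between 0 and 2 in J2, and was 1 in J2 when fitted over both groups only. The cause was not tested.

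For KO against wild type in flow-through (log2), a common total over all genes gave -0.18 for Gm23935, -0.52 for Gm42418, -0.40 for Mir6240, -0.27 for Mir6236, -0.12 for AY036118 and -0.43 for CT010467.1. A common total over the other genes gave -0.19 for Gm42418, -0.074 for Mir6240 and -0.10 for CT010467.1. Quantile normalization gave 0.19 for AA474408, -0.69 for Gm42418, -0.38 for Mir6240, -0.18 for AY036118 and -0.083 for CT010467.1. For adult against wild type in flow-through, a common total gave -0.091 for AY036118, and quantile normalization 0.0055 for Gm23935 and -0.27 for AY036118. In J2 the total over the other genes gave -0.11 for Gm42418, and quantile normalization -0.39 for Lars2. These scalings moved the median of all genes in the 4 comparisons from 0.33, 0.13, 0.28 and 0.33 to -0.10, -0.05, -0.20 and 0.35 for the common total, to 0.00, 0.19, 0.26 and 0.11 for the total over the other genes, and to -0.02, -0.06, -0.10 and -0.14 for quantile normalization.

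Leaving out each library in turn gave, for KO against wild type in flow-through, -1.44 to 2.41 for Lars2, -2.01 to 1.33 for AA474408, -0.022 to 0.46 for Gm42418, -0.27 to 0.75 for Mir6240, -0.10 to 0.75 for Mir6236, -0.027 to 0.95 for AY036118 and -0.20 to 0.86 for CT010467.1. For adult against wild type it gave -1.16 to 0.84 for Gm23935, -1.74 to 0.48 for Gm42418, -0.49 to 0.40 for Mir6240 and -0.71 to 0.25 for CT010467.1 in flow-through, and -1.01 to 0.69 for Gm42418 and -0.43 to 0.11 for CT010467.1 in J2. Where 1 adult library was left, it was assumed to vary like the other groups.

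Without mitochondrial genes in the total, the summed share of the features was 65.2% in KO J2, 47.4% in adult J2, 98.1% in adult flow-through and 97.5% in wild-type P18 flow-through. Leaving out each library gave 64.4% to 64.6% in KO J2, 43.0% to 46.1% in adult J2, 44.6% to 56.7% in wild-type P18 J2, 94.5% to 97.0% in KO flow-through, 96.6% to 97.5% in adult flow-through and 95.2% to 96.4% in wild-type P18 flow-through. In flow-through 1 read was worth up to 8.31 units by a weakly supported estimate, so low values there may rest on few reads.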

Other observations

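Mir6236 divided by Mir6240, a ratio that does not depend on how a library was scaled, was 1.19, 1.27 and 1.28 in KO, 0.812 and 0.845 in adult, and 0.818, 1.37 and 1.30 in wild-type P18 flow-through. In J2 it was 0.643, 1.28 and 0.730 in KO, 0.460 and 0.509 in adult, and 0.276, 0.893 and 0.713 in wild-type P18. Both adult libraries and wild-type P18 replicate 1 had the 3 lowest ratios in flow-through, and the same 3 codes had the 3 lowest in J2. This order was noticed in the data and was not tested.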
